A study of Mus musculus with 4 samples.

Results

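The MHC class II presentation genes are 10 mouse genes, chosen by name from the 20599 gene symbols of the deposited tables: the antigen-binding chains H2-Aa, H2-Ab1 and H2-Eb1, the invariant chain Cd74, the peptide editor chains H2-DMa, H2-DMb1 and H2-DMb2, the chains H2-Oa and H2-Ob of its inhibitor, and the transactivator Ciita. The list was set by gene name and role, with no threshold on a measured value, although earlier results of these data were known when it was drawn up. RNA-Seq libraries of wild-type C57BL/6 mice were analyzed, 2 from peritoneal B1a cells and 2 from splenic follicular B2 cells, with no treatment. The labels give an age of 4 weeks for all libraries, whereas the methods give 4 weeks for B1a cells and 8 weeks for B2 cells. Effects of tissue, of subset and possibly of age therefore cannot be told apart. B1a cells were sorted as IgM+ CD5+ B cells lacking CD23, and B2 cells by high IgD, low IgM and CD21. The methods give 35000 to 100000 sorted cells for a B1a library and 100000 for a B2 library, and 2 mice for each group. Libraries from Dnmt3a-deficient mice were not used here.

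MHC class II molecules are pairs of an alpha and a beta chain that carry peptides from taken-up proteins to the surface of B cells, macrophages and dendritic cells, where CD4+ T cells read them. The invariant chain escorts new pairs to late endosomes and leaves a fragment in their groove, H2-DM exchanges that fragment for other peptides, and H2-DO, which is made mostly by B cells, restrains H2-DM. Nearly all of these genes share a promoter module, the S, X and Y boxes, on which the RFX complex, CREB and NF-Y assemble and to which the protein made by Ciita binds.

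The bases around the Y box are shown because this module is what the class II genes have in common and what Ciita acts through. Promoter windows of RefSeq on GRCm38.p6, from 250 bases before to 50 after a start, were found for 7 of the 10 genes. The letters ATTGG stood on the strand of the gene within 100 bases before the start in 6 of these 7 genes, against 10.4% of 32851 windows of all genes. In each line below the Y box letters are the last 5, in capitals, and capitals further to the left mark a match of GNNACNGNTG, a form of the X box.
H2-Oa: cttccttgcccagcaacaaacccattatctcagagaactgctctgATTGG
H2-DMb2: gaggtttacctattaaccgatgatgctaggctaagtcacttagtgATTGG
H2-DMb1: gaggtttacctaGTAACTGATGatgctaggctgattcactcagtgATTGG
H2-Ob: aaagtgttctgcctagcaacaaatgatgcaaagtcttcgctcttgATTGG
H2-Aa: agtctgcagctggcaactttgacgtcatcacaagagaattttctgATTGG
H2-Eb1: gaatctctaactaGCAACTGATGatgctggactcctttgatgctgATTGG
H2-Eb2: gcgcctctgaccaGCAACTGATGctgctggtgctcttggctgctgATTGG

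The last line, H2-Eb2, is a class II beta chain gene outside the 10 and is shown because it lies next to H2-Eb1 and passed the test described further on. The H2-Aa line is on the minus strand (chr17:34287867-34287916) and the others are on the plus strand, at chr17:34092291-34092340 for H2-Oa, chr17:34145114-34145163 for H2-DMb2, chr17:34153085-34153134 for H2-DMb1, chr17:34238803-34238852 for H2-Ob, chr17:34305763-34305812 for H2-Eb1 and chr17:34325530-34325579 for H2-Eb2. The start that follows the H2-DMb2 line lies inside the annotated span of the gene. The first base of ATTGG lay 43 to 90 bases before the start in the 6 class II presentation genes. The lines of H2-DMb1 and H2-DMb2 have the same letter at 45 of 50 positions, and those of H2-Eb1 and H2-Eb2 at 38 of 50. Both box motifs on one strand with 15 to 30 bases between them, searched on both strands of the whole window, were found in H2-DMb1 and H2-Eb1, that is in 2 of 7 genes, against 57 of all windows or 0.174%. On both strands of the whole window, GNNACNGNTG alone was found in 3 of 7 genes against 14.0% of all windows, ATTGG in 7 of 7 against 37.4%, and the CREB site TGACGTCA in 1 of 7, H2-Aa, against 1.79%. A gene was counted where any of its windows held the letters, and H2-DMa, with 2 windows, held ATTGG in 1 of them. The motif forms and spacings were set with the sequences in view, and a match is a description of letters.

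The totals were 11032732 to 18588623 counts per library, and 3 counts, used as a floor for counting error only, correspond to 0.161 to 0.272 CPM (counts relative to the library total, adjusted here by TMM factors). All 10 genes lay far above it and were among the 12078 genes tested with edgeR. Log2 CPM over these genes correlated with r = 0.836 between the B1a replicates and r = 0.966 between the B2 replicates. Between a B1a and a B2 library r ran from 0.788 to 0.858, a range that holds the value of the B1a replicates. The common coefficient of variation between replicates in the edgeR fit was 0.507, so a gene that did not pass is not shown to be equal between the groups. Markers were highest in the labelled group: 4 B1a markers (Cd5, Spn, Itgam, Bhlhe41) summed to 884 and 648 CPM in B1a and 72.2 and 72.8 CPM in B2 cells, and 2 follicular markers (Fcer2a, Cr2) to 162 and 153 CPM in B1a and 1902 and 1942 CPM in B2 cells. With all libraries, the p-values rest on the spread between 2 libraries of each group. In fits that left out 1 library, the spread came only from the group that kept 2, so passing there does not cover the other group. Fits without a B1a library called more genes than the fit of all libraries. From bulk RNA, a smaller share of expressing cells cannot be told apart from less RNA per cell.

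Ciita was the 1 gene of the 10 that passed the test, and it was 2.94-fold higher in B2 than in B1a cells. The CPM values of the genes for the peptide-binding chains that it controls overlapped between the groups. In TPM, which is scaled within each library without TMM factors, H2-Aa and H2-Ab1 had lower values in both B1a libraries than in either B2 library. Both H2-DO genes had lower values in both B1a libraries than in either B2 library, without passing the test. Of all tested genes 5.74% were called at an adjusted p under 0.05, 4.24% as higher in B1a cells and 1.5% as higher in B2 cells. Against these shares, 0 of the 10 class II genes were called as higher in B1a and 1 as higher in B2 cells by edgeR, 5 had an unadjusted p under 0.05 (Cd74, H2-DMb1, H2-Oa, H2-Ob and Ciita) against 2525 of all 12078 genes, and DESeq2 called 1 and 2, against 1011 and 551 of all genes. The split over all genes, 512 higher in B1a and 181 higher in B2 cells, was 266 and 233 with limma on log2(TPM + 1), a scale on which the median difference of all genes moved by -0.25. The CPM values did not overlap between the groups for 7 of the 10, 3 higher in B1a cells (Cd74, H2-DMa, H2-DMb2) and 4 higher in B2 cells (H2-DMb1, H2-Oa, H2-Ob, Ciita). Over all tested genes 54.3% did not overlap, 25.3% with higher values in B1a cells and 29% with higher values in B2 cells. The median log2 fold change, B1a minus B2, was -0.033 for the 10 genes and -0.028 for all tested genes.

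**Figure D1:**
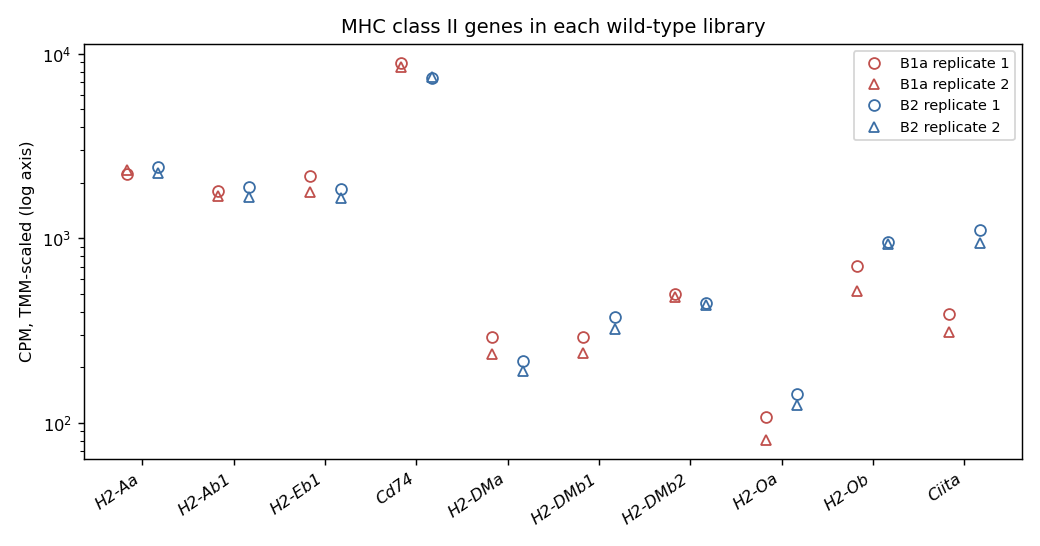
CPM of each class II presentation gene in each library, on a log axis, with B1a libraries in red and B2 libraries in blue, circles for replicate 1 and triangles for replicate 2. Cd74 lies highest at 7388 to 8921 CPM in all 4 libraries, and Ciita shows the widest gap, with 311 and 387 CPM in B1a against 943 and 1111 CPM in B2 cells.

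The class II transactivator Ciita (chr16:10480014-10531064, GRCm38) is the regulator without which class II genes are not transcribed. Its B1a libraries gave 387 and 311 CPM, and its B2 libraries 1111 and 943 CPM. Every B2 value lay above every B1a value. The log2 fold change was -1.56 (SE 0.157, n = 2 per group), with an adjusted p of 0.00535 by edgeR's quasi-likelihood test. It passed in 11 of 11 alternative analyses of all libraries, with log2 fold changes from -1.81 to -1.54, and in 4 of 4 analyses that left out 1 library, with values from -1.73 to -1.41. Ciita has 1 entry in the files, and RSEM gave its count a posterior standard deviation of 0.64 to 2.42 counts. Its annotated span overlaps that of Dexi by 858 bases and that of a long non-coding RNA, and whether strand was used in the counting is not given in the sources used here.

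The antigen-binding chains are those of I-A, namely H2-Aa (alpha, chr17:34282744-34287823) and H2-Ab1 (beta, chr17:34263227-34269418), and the beta chain of I-E, H2-Eb1 (chr17:34305867-34316674). H2-Aa was at 2222 and 2347 CPM in B1a and at 2436 and 2266 CPM in B2 cells. H2-Ab1 was at 1807 and 1695 CPM in B1a and at 1888 and 1676 CPM in B2 cells. H2-Eb1 was at 2169 and 1783 CPM in B1a and at 1837 and 1647 CPM in B2 cells. For all 3 genes a CPM value of one group lay between those of the other, so the groups overlapped on this scale. In TPM, H2-Aa was at 5153 and 5309 in B1a and at 6644 and 6082.5 in B2 cells. H2-Ab1 was at 3725 and 3409 TPM in B1a and at 4577 and 4002 TPM in B2 cells, so neither I-A chain overlapped in TPM. On log2(TPM + 1) their log2 fold changes were -0.28 and -0.26 without passing, on a scale where the median of all genes moved by -0.25. The log2 fold changes were -0.041 (SE 0.0951) for H2-Aa, -0.025 (SE 0.106) for H2-Ab1 and 0.18 (SE 0.130) for H2-Eb1, and the adjusted p-values by edgeR were 0.874, 0.931 and 0.512. The sign for H2-Eb1 turns on the TPM scale (-0.063), and its log2 fold change was 0.32 without B1a replicate 2. The sign for H2-Ab1 turns without B1a replicate 2 (0.019), and without B2 replicate 1 the signs for H2-Ab1 (0.061) and H2-Aa (0.011) turn.

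C57BL/6 mice are known to make no I-E, because the promoter of the E alpha gene is deleted, so H2-Eb1 RNA has no partner there. The files carry that gene as the pseudogene H2-Ea-ps, with 0 and 0 counts in the B1a replicates and 13 and 55 counts in the B2 replicates. Against a floor of 3 counts per B1a library, it was at least 7.42-fold higher in the mean of the B2 replicates, which differed (1.13 and 2.88 CPM). The adjusted p for this gene was 0.169 by edgeR. Without B1a replicate 2 its log2 fold change was -7.82, a value that depends on a prior count. Without B2 replicate 2 it had too few counts to be tested. The RNA for the I-E beta chain was thus read at 1647 to 2169 CPM in the same libraries.

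The invariant chain Cd74, the chaperone that fills the groove of new class II pairs, had the highest level of the 10 genes. Its values were 8921 and 8432 CPM in B1a and 7388 and 7444 CPM in B2 cells. Both B1a values lay above both B2 values. The log2 fold change was 0.23 (SE 0.0801), with an adjusted p of 0.186 by edgeR, and it turned to -0.014 on both TPM scales. It passed in 4 of 11 alternatives of all libraries (DESeq2, adjusted p = 0.0111; limma-voom, 0.0178; limma-voom weighted by cell type, 0.00293; and a fit with a replicate block, 0.00825). It also passed without B1a replicate 1 (0.18) and without B1a replicate 2 (0.27). These fits without a B1a library called 2050 and 2787 genes as higher in B1a cells and 1903 and 3356 as higher in B2 cells.

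H2-DM is a dimer of the product of H2-DMa (alpha, chr17:34119693-34139101) with that of H2-DMb1 (chr17:34153191-34160229) or H2-DMb2 (chr17:34143229-34151553), and it frees class II grooves of the invariant chain fragment. H2-DMa was at 293 and 236 CPM in B1a and at 215 and 190 CPM in B2 cells. H2-DMb1 was at 292 and 238 CPM in B1a and at 376 and 324 CPM in B2 cells. H2-DMb2 was at 497 and 481 CPM in B1a and at 444 and 433 CPM in B2 cells. None of the 3 overlapped between the groups, and H2-DMb1 was the 1 with higher values in B2 cells. The log2 fold changes were 0.38 (SE 0.162) for H2-DMa, -0.40 (SE 0.156) for H2-DMb1 and 0.16 (SE 0.108) for H2-DMb2, with adjusted p-values of 0.253, 0.222 and 0.498 by edgeR. That of H2-DMb2 turns to -0.085 on the TPM scale. The log2 fold change of H2-DMa was 0.53 without B1a replicate 2, and that of H2-DMb1 was -0.55 without B1a replicate 1.

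The split of reads between the DM beta genes is uncertain. Transcripts of H2-Eb2 and of the class II presentation genes other than Cd74 were compared with each other in windows of 75 bases with at most 2 mismatches, and among these only H2-DMb1 and H2-DMb2 shared any, 44.9% and 42.4% of their windows. The single entries of H2-DMb1 had posterior standard deviations of 143 to 504.2 counts, beside counts of 262 to 2567. Entries 1 and 2 of H2-Oa, which shared no windows, had 304 to 633 counts beside 449.5 to 1197. These deviations therefore do not measure the split between H2-DMb1 and H2-DMb2 by itself. With both genes summed as 1 gene, the log2 fold change was -0.066 with an adjusted p of 0.818 by edgeR, against -0.40 for H2-DMb1 alone. H2-DMa overlaps Brd2 by 3122 bases of its annotated span.

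H2-DO, the inhibitor of H2-DM, is a dimer of the products of H2-Oa (alpha, chr17:34092379-34095234) and H2-Ob (beta, chr17:34238905-34245908). H2-Oa was at 107 and 80.8 CPM in B1a and at 143 and 125 CPM in B2 cells. H2-Ob was at 707 and 516 CPM in B1a and at 956 and 935 CPM in B2 cells. Both genes were lower in both B1a libraries than in either B2 library, and the B1a replicates lay further apart than the B2 replicates. The log2 fold change was -0.51 (SE 0.204, adjusted p = 0.231 by edgeR) for H2-Oa and -0.63 (SE 0.166, adjusted p = 0.1004 by edgeR) for H2-Ob. H2-Ob passed in 6 of 11 alternatives of all libraries, with adjusted p-values from 3.27e-05 to 0.122 over the 11. The lowest came from the fit with a replicate block, a pairing that nothing in the sources gives. H2-Oa passed in 0 of 11, with adjusted p-values from 0.0956 to 0.334. Without B1a replicate 1 the log2 fold changes were -0.88 for H2-Ob and -0.73 for H2-Oa, and without B1a replicate 2 that of H2-Ob was -0.42.

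**Figure D2:**
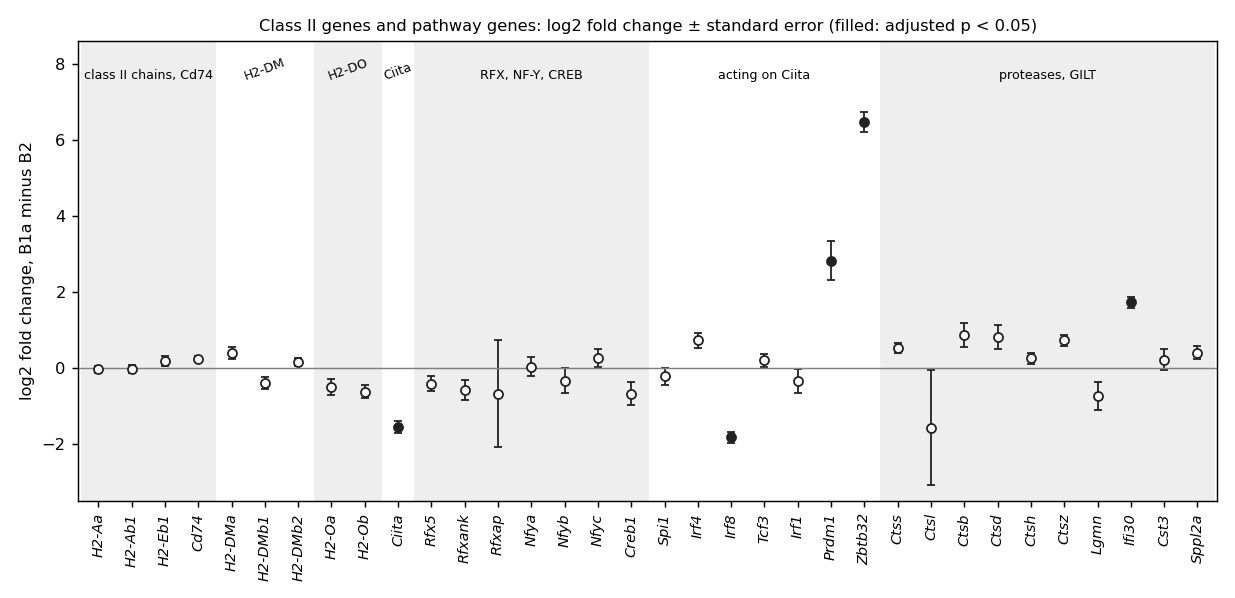
Log2 fold change, B1a minus B2, with its standard error for the 10 class II presentation genes and for regulators, factors acting on Ciita, and genes of antigen processing; filled points have an adjusted p under 0.05. Ciita at -1.56 is the 1 filled class II gene, and the 3 filled genes above 0 are Zbtb32, Prdm1 and Ifi30.

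Levels of different genes were compared as TPM, which divides by length. In B1a cells the order of mean TPM (± SD, n = 2) ran from Cd74 (16758 ± 835) through H2-Aa (5231 ± 110), H2-Ab1 (3567 ± 224), H2-Eb1 (2827 ± 440) and H2-DMb2 (1564 ± 63.2). Below these came H2-Ob (538 ± 128), H2-DMb1 (501 ± 80.3), H2-DMa (381 ± 65.3), H2-Oa (220 ± 47.4) and Ciita (151 ± 25.9). H2-Ob and H2-DMb1 overlapped across the B1a replicates, and no other neighbors in this order did. In B2 cells the first 7 places were held by the same genes in the same order, from Cd74 (16908 ± 125) to H2-DMb1 (781 ± 91.5). Ciita (527 ± 67.9) then stood above H2-Oa (370 ± 39.0) and H2-DMa (345 ± 34.2), and the last pair overlapped. Ciita thus held place 10 in B1a and place 8 in B2 cells.

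Ratios within a library do not depend on its scaling. The ratio of H2-DO to H2-DM, each taken as the TPM of its lower chain, was 0.594 and 0.557 in the B1a replicates and 1.08 and 1.07 in the B2 replicates. In all libraries the lower chains were H2-Oa and H2-DMa, so the uncertain split of H2-DMb1 and H2-DMb2 does not enter. The means were 0.576 ± 0.0258 in B1a and 1.07 ± 0.00648 in B2 cells (SD, n = 2), and the gap was larger than the spread of either group. The exact two-sided permutation test gave p = 0.333, the smallest value that 2 against 2 libraries allow. The other chain pointed the same way, with H2-Ob at 1.47 and 1.34 times the TPM of H2-DMa in B1a and at 2.71 and 3.01 times in B2 cells.

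The ratio of Cd74 to the sum of H2-Aa and H2-Ab1 was 1.95 and 1.85 in the B1a replicates and 1.51 and 1.67 in the B2 replicates. The groups did not overlap, with means of 1.90 ± 0.0704 and 1.59 ± 0.108 (SD, n = 2; exact permutation p = 0.333). The sum of H2-Aa and H2-Ab1 was 52.5 and 65.8 times the TPM of Ciita in B1a and 19.5 and 21.0 times in B2 cells. This ratio was chosen after the values were seen and was not tested. H2-Aa stood at 1.38 and 1.56 times H2-Ab1 in B1a and at 1.45 and 1.52 times in B2 cells, so that the chains of I-A kept overlapping proportions. The 10 genes together took 1.61% ± 0.0889 of the counts in B1a and 1.70% ± 0.0778 in B2 cells (SD, n = 2), and the groups overlapped (exact permutation p = 0.667).

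**Figure D3:**
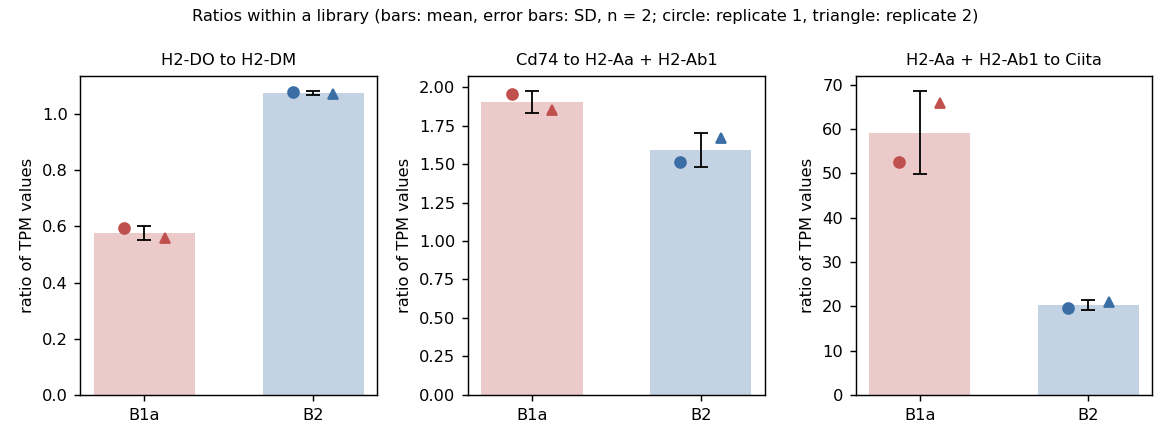
Ratios of TPM values within each library for H2-DO to H2-DM, Cd74 to H2-Aa plus H2-Ab1, and H2-Aa plus H2-Ab1 to Ciita; bars are means, error bars are SD (n = 2), and points are replicates. The groups do not overlap in any panel, and the ratio to Ciita is 59.2 in B1a and 20.3 in B2 cells on average.

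Of 35 other genes of class II regulation, processing and the class II region, all were tested, 3 were called as higher in B1a and 2 as higher in B2 cells, and their median log2 fold change was 0.13. Over all tested genes the shares called were 4.24% and 1.5%. The groups did not overlap for 15 with higher values in B1a and 12 with higher values in B2 cells, against 25.3% and 29% of all tested genes. H2-Ea-ps, whose fitted value depends on a prior count, stays below the median at its bound. Of 7 factors known to act on Ciita transcription, 2 were called as higher in B1a and 1 as higher in B2 cells. Irf8, an interferon regulatory factor of B cells that activates Ciita, was at 116 and 103 CPM in B1a and at 395 and 386 CPM in B2 cells (log2 fold change -1.84, SE 0.134, adjusted p = 0.00236 by edgeR). No B1a value of Irf8 reached a B2 value, and it passed in 11 of 11 alternatives of all libraries. Prdm1, which encodes Blimp-1, a repressor of Ciita in plasma cells, was at 22.4 and 36.2 CPM in B1a and at 4.16 and 4.13 CPM in B2 cells (2.82, SE 0.511, adjusted p = 0.0346 by edgeR). Zbtb32, a zinc finger protein reported to repress Ciita together with Blimp-1, was at 298 and 245 CPM in B1a and at 3.64 and 2.56 CPM in B2 cells (6.47, SE 0.266, adjusted p = 0.000541 by edgeR). Both genes had higher values in every B1a library. Prdm1 passed in 8 of 11 alternatives, and without B2 replicate 1 (2.82) and without B2 replicate 2 (2.81) it did not pass. The other factors did not pass by edgeR, with log2 fold changes of 0.72 for Irf4, 0.20 for Tcf3, -0.22 for Spi1 and -0.34 for Irf1. Whether any of the 7 factors sets the level of Ciita in these cells was not tested. Irf4, at 0.72 (adjusted p = 0.119 by edgeR), passed in 4 of 11 alternatives (adjusted p-values from 0.000487, with the replicate block, to 0.266 over the 11). Its log2 fold change was 0.98 without B1a replicate 1 and 0.40 without B1a replicate 2.

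Genes for 7 proteins that assemble on the X and Y boxes were not called in either direction by edgeR, with log2 fold changes from -0.69 to 0.26. Over all tested genes 5.74% were called. An unadjusted p under 0.05 was found for 0 of 7, against 2525 of all 12078 tested genes. Rfx5, the DNA-binding subunit of the RFX complex, was at 139 and 105 CPM in B1a and at 174 and 153 CPM in B2 cells (-0.42, adjusted p = 0.289 by edgeR). Rfxank, its ankyrin subunit, was at 38.0 and 52.8 CPM in B1a and at 69.7 and 66.6 CPM in B2 cells (-0.58, adjusted p = 0.274 by edgeR). Both had lower values in the B1a libraries. Rfxap, the remaining subunit, was at 0.359 and 13.0 CPM in B1a and at 11.97 and 9.57 CPM in B2 cells, and its log2 fold change of -0.68 (adjusted p = 0.855 by edgeR) was 0.28 without B1a replicate 1 and -4.87 without B1a replicate 2. Without B1a replicate 1 the log2 fold change of Rfx5 was -0.63, and without B1a replicate 2 that of Rfxank was -0.84. Creb1, which binds next to the RFX complex, had the lowest log2 fold change of the 7 (-0.69, adjusted p = 0.273 by edgeR) and passed in 2 of 11 alternatives, with the replicate block (adjusted p = 0.00799) and with limma-voom weighted by cell type (0.0424). Without B1a replicate 2 the log2 fold change of Creb1 was -1.18.

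Of 10 genes that process antigen or the invariant chain, 1 was called as higher in B1a cells and 0 as higher in B2 cells by edgeR, and 5 had an unadjusted p under 0.05. Over all tested genes 4.24% and 1.5% were called, and 2525 of 12078 had an unadjusted p under 0.05. The called gene, Ifi30, encodes the thiol reductase GILT, which opens disulfide bonds of antigens in endosomes. It was at 402 and 347 CPM in B1a and at 109 and 117 CPM in B2 cells, and it was 3.31-fold higher in B1a cells (log2 fold change 1.73, SE 0.143, adjusted p = 0.00317 by edgeR). Ctss, the cathepsin that makes the last cuts in the invariant chain in B cells, was at 456 and 469 CPM in B1a and at 297 and 349 CPM in B2 cells. Its groups did not overlap, and its log2 fold change was 0.52 (SE 0.129, adjusted p = 0.0883 by edgeR). Ctss passed in 5 of 11 alternatives, and without B1a replicate 1 (0.54) or without B1a replicate 2 (0.50). Ctsz, another endosomal protease, had a log2 fold change of 0.72 (adjusted p = 0.0553 by edgeR) and passed in 6 of 11 alternatives (adjusted p-values from 0.00331 to 0.131 over the 11), without B1a replicate 1 (0.62) and without B1a replicate 2 (0.81). Lgmn passed as higher in B2 cells with the replicate block (adjusted p = 0.0365) and without B1a replicate 1 (-1.39). Of the 3 genes that set how long class II stays at the surface, 0 were called by edgeR and 0 had an unadjusted p under 0.05, beside the same shares of all genes. March1, the ubiquitin ligase that sends class II to degradation, was at 220 and 373 CPM in B1a and at 303 and 375 CPM in B2 cells (-0.19, adjusted p = 0.761 by edgeR). Without B1a replicate 1 the value for March1 was 0.13, and without B1a replicate 2 it was -0.62. Cd83, which opposes March1, was at 196 and 205 CPM in B1a and at 168 and 193 CPM in B2 cells (0.15, adjusted p = 0.631 by edgeR), and its sign turns on the TPM scale (-0.080 on log2(TPM + 1)).

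Apart from Cd74 and Ciita, the class II presentation genes lie together in the class II region of chromosome 17, within 224 kb from H2-Oa to H2-Eb1. Their differences had both signs along this stretch: H2-Oa and H2-Ob lay below 0 and H2-DMa above 0 in all alternatives run. The 5 other tested genes of the stretch, Brd2, Psmb9, Tap1, Psmb8 and Tap2, had log2 fold changes from -0.41 to 0.29. By edgeR 0 of 5 were called, against 5.74% of all tested genes. Brd2 (-0.41, adjusted p = 0.131 by edgeR) passed with DESeq2 (adjusted p = 0.0245), without B1a replicate 1 (-0.33) and without B1a replicate 2 (-0.51). Just beyond H2-Eb1, H2-Eb2 was called as higher in B2 cells. It was at 62.7 and 44.9 CPM in B1a and at 153 and 136 CPM in B2 cells (log2 fold change -1.43, SE 0.226, adjusted p = 0.0229 by edgeR). H2-Eb1 overlapped between the groups, and the lines of H2-Eb1 and H2-Eb2 above both match both boxes. H2-Eb2 was picked out because it passed, and whether the boxes bear on its difference was not tested. H2-Eb2 passed in 10 of 11 alternatives, the exception being gene entries taken without summing (adjusted p = 0.0513).

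**Figure D4:**
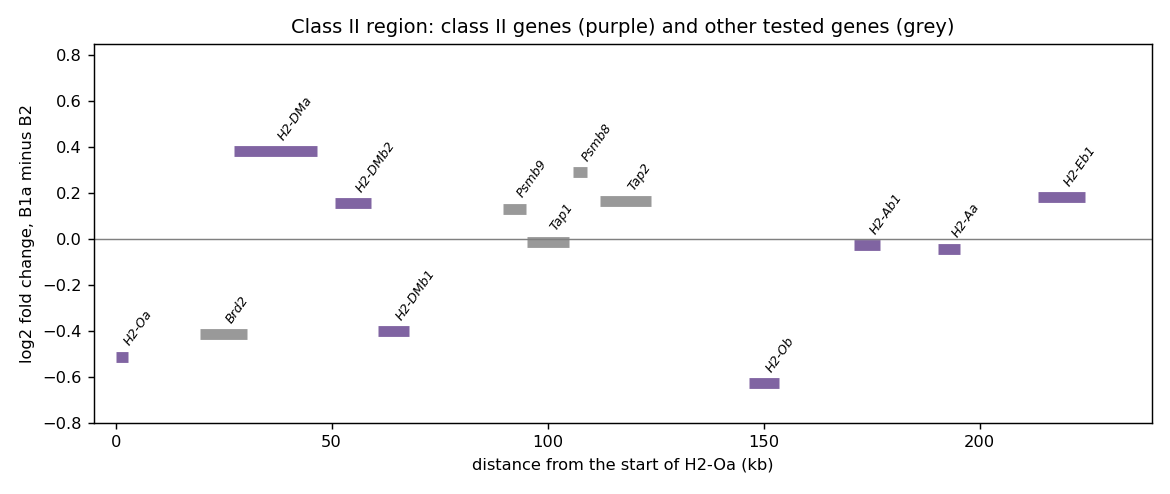
Log2 fold change, B1a minus B2, of the tested genes of the class II region against distance from the start of H2-Oa in kb; each bar spans its gene, purple for class II presentation genes and grey for others. The values run from -0.63 for H2-Ob to 0.38 for H2-DMa.

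Macrophages and dendritic cells also make class II RNA, so their markers were read beside these values. The 10 macrophage markers summed to 244 and 273 CPM in B1a and to 72.7 and 78.0 CPM in B2 cells. Lyz2, at 127 and 136 CPM in B1a and 16.8 and 27.2 CPM in B2 cells, was the 1 of them called (2.57, adjusted p = 0.00764 by edgeR). Emr1, Cd68, C1qa, C1qb and C1qc were also higher in both B1a libraries than in either B2 library, with log2 fold changes from 1.69 to 1.97, without passing the test. Csf1r, Mertk and Marco overlapped, and Fcgr1 had too few counts to be tested, with 0 counts in 3 of 4 libraries. The 8 dendritic cell markers summed to 20.02 and 34.8 CPM in B1a and to 48.9 and 35.8 CPM in B2 cells. By edgeR 0 of these 8 were called, against 5.74% of all tested genes. Zbtb46 had higher values in both B1a libraries, Itgax and Cd209a had higher values in both B2 libraries, Cd209a having 0 counts in both B1a libraries, and the other 5 overlapped. The 4 B cell markers (Cd79a, Cd79b, Ms4a1 and Cd22) summed to 5235 and 4651 CPM in B1a and to 4519 and 4491 CPM in B2 cells. They did not move together: by edgeR, Cd79a (0.53, adjusted p = 0.0349) and Ms4a1 (0.73, adjusted p = 0.0299) were called as higher in B1a cells and Cd22 (-0.89, adjusted p = 0.0417) as higher in B2 cells. The 4 plasma cell markers, of which Prdm1 is one, summed to 82.8 and 109 CPM in B1a and to 80.4 and 111 CPM in B2 cells, and 5 T cell markers to 23.7 to 51.5 CPM in all libraries. The part of other cells in the class II values was not tested, nor was their part in the values of the processing genes, among them Ifi30, Ctss and Ctsz.

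**Figure D5:**
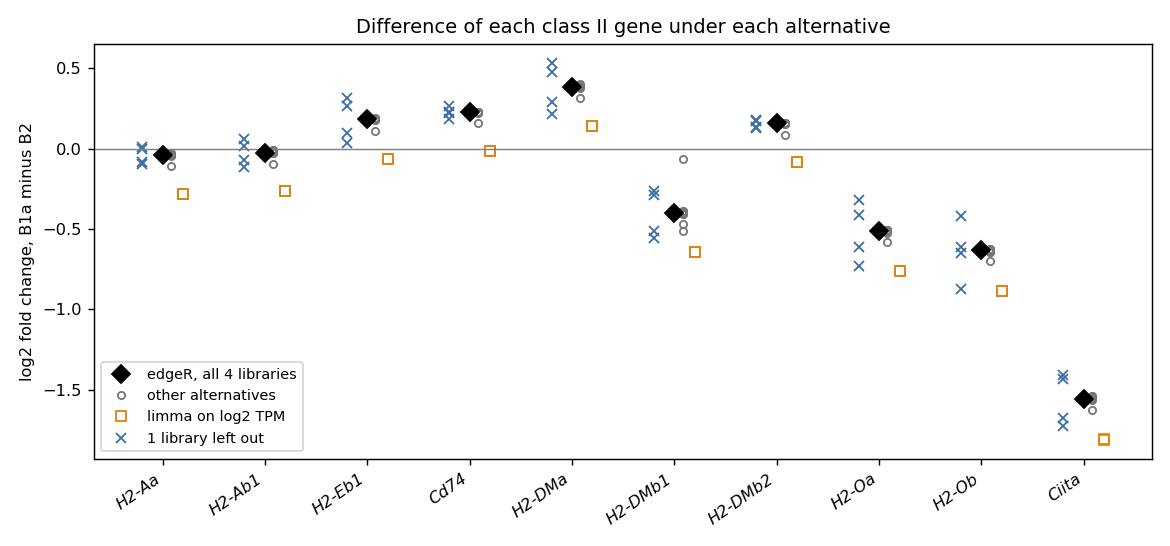
Log2 fold change, B1a minus B2, of each class II presentation gene by edgeR with all libraries (diamonds), by limma on log2 TPM (squares), with 1 library left out (crosses) and under the other alternatives (circles). Ciita stays between -1.81 and -1.41 in all of these, the TPM scale lies lower for every gene, and the lone circle of H2-DMb1 near 0 is its sum with H2-DMb2.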

How the data were processed

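RNA-Seq libraries of wild-type B1a cells (n = 2) and follicular B2 cells (n = 2) were analyzed. The authors used mm10 with RefSeq genes and RSEM; the methods name v1.25.0 and the submitters' processing notes 1.2.29. They deposited an expected count per gene entry without normalization, a read of uncertain origin being shared out among entries. Also deposited were TPM and a signal value, the posterior standard deviation of each count. The 21970 entries carry 20599 symbols; 8 of the 10 class II genes have 4 entries each, whose places the files do not give.

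Entries of a symbol were added and rounded. After filterByExpr and TMM scaling, 12078 genes were tested by the quasi-likelihood test of edgeR 4.0.16 (R 4.3.3), with no block for replicates and with Benjamini-Hochberg adjustment at 0.05. TMM factors were 0.964 and 0.963 for B1a and 1.05 and 1.03 for B2 libraries. SEs were derived from the F statistic. Ratios were tested by exact permutation (scipy 1.17.1). Nothing in the sources pairs the replicates. Totals of 11032732 to 18588623 counts set the precision, and floors cover counting error only. The edgeR, limma-voom and DESeq2 fits were tested on simulated counts in which 200 genes differed by 3 on the log2 scale. That difference is larger than that of any class II presentation gene.

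The members and lists were chosen with earlier results of these data known. By rule, all 10 members are given by value; other lists by counts and ranges with every called gene, and Rfx5, Rfxank, Rfxap, Prdm1, Zbtb32, Ctss, Ifi30, March1 and Cd83 in any case; and the 5 genes of nearest pattern. Alternatives were DESeq2 1.42.0, upper quartile factors, limma-voom (limma 3.58.1) with and without a weight for each cell type, a minimum of 10 counts per library, a minimum of 1 count in any, limma on log2(TPM + 1) and log2(TPM + 0.1), unsummed entries, H2-DMb1 and H2-DMb2 summed, a replicate block, and each library left out in turn. Some genes of the lists are not reported here and were left out of their counts and sums. Irf4, Creb1, Ctsz, Lgmn, Brd2 and the marker genes given singly without a call were chosen after their values were seen. EBSeq, which the methods name, was not run.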

Additional observations from a re-analysis of the deposited data

How the results depend on the processing

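Ciita, Irf8, Zbtb32 and Ifi30 passed under every alternative run. Other calls depended on the test. For class II presentation genes, 0 higher in B1a and 1 higher in B2 cells became 1 and 2 with DESeq2, with limma-voom, with limma-voom weighted by cell type and with the replicate block, and 0 and 2 with at least 10 counts in every library or with no filter; leaving out 1 library gave 0 to 3 and 1 to 4. For the 35 other genes, 3 higher in B1a and 2 higher in B2 cells were called; the first became 6 with DESeq2 and with no filter, 7 with weighted limma-voom and, with the replicate block, 7 beside 4 higher in B2 cells, and the latter was 1 with unsummed entries; leaving out 1 library gave 2 to 10 and 2 to 8. For all genes, 512 and 181 became 1011 and 551 with DESeq2, 1054 and 361 with weighted limma-voom, 779 and 362 with no filter, and 889 and 592 with the replicate block; those higher in B2 cells were 278 with limma-voom and 279 with at least 10 counts, and those higher in B1a cells 266 on log2(TPM + 1) and 196 on log2(TPM + 0.1). Leaving out 1 library gave 394 to 2787 higher in B1a and 144 to 3356 higher in B2 cells, the highest without B1a replicate 2; the lone library is then assumed to vary like the others. The replicate numbers are shared names only (correlation of same-numbered deviations -0.035), and the block made Cd74 and H2-Ob pass.

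On log2(TPM + 1) the median of all genes moved by -0.25, and on log2(TPM + 0.1) by -0.26, so differences on that scale are relative to it. The following signs turned, in the order of these scales: H2-Eb1 -0.0634 and -0.0634, Cd74 -0.0138 and -0.0138, H2-DMb2 -0.0852 and -0.0853, Nfya -0.228 and -0.231, Tcf3 -0.0495 and -0.0498, Cst3 -0.0228 and -0.0228, Cd83 -0.0802 and -0.0805, Psmb9 -0.1075 and -0.1083, Tap2 -0.0745 and -0.0749. Nfya also turned with upper quartile factors (-0.036), limma-voom (-0.017) and weighted limma-voom (-0.015). With 1 library left out, values of both signs were found for H2-Aa (-0.099 to 0.011), H2-Ab1 (-0.11 to 0.061), Rfxap (-4.87 to 0.28), Nfya (-0.29 to 0.29), Tcf3 (-0.010 to 0.39), Irf1 (-0.90 to 0.054), Cst3 (-0.031 to 0.47), March1 (-0.62 to 0.13) and Tap1 (-0.14 to 0.10). The H2-DO to H2-DM difference of -0.50 was -0.31 on counts without division by length, with the same fold (1.87, B2 over B1a) on both scales, and that of Cd74 to the I-A chains, 0.31, was 0.19 with H2-Eb1 added. Taking H2-DMa alone, or H2-DMb1 as the beta chain, left the DO to DM ratio as it was, since H2-DMa was already the lower chain. The cause of these changes was not tested.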

Other observations

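Fam133b had the CPM pattern nearest to that of the antigen-binding chains over the 4 libraries, with 38.5 and 36.2 CPM in B1a and 39.3 and 35.3 CPM in B2 cells. Its distance, the Euclidean distance in log2 CPM centered on each gene's mean from the median profile of H2-Aa, H2-Ab1 and H2-Eb1, was 0.0144. The next were Tstd2 (0.0235), Spryd3 (0.0299), Tm2d1 (0.0304) and Il10rb (0.0353). With 4 points each, these are descriptions of the libraries and were not tested.

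Chain proportions were also read within each complex. H2-Oa stood at 0.403 and 0.417 times the TPM of H2-Ob in B1a and at 0.398 and 0.356 times in B2 cells. H2-DMb1 stood at 0.347 and 0.293 times H2-DMb2 in B1a and at 0.500 and 0.441 times in B2 cells. Entries 3 and 4 of H2-DMb1 held 17.1% to 30.9% of its counts in a library, against at most 1.85% for the other class II genes with 4 entries.

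The pair of GNNACNGNTG and ATTGG was carried by the windows of 53 genes, and 10 of these were H2 genes or B2m. Of the 10, 7 were class I genes or B2m, among them H2-K1 and H2-D1.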
